A study of Mus musculus with 62 samples.

Results

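Cholesterol synthesis is described here through 8 genes: Hmgcs1, Idi1, Fdft1, Sqle, Lss, Cyp51, Dhcr7 and Insig1. They were chosen by name, and 7 of the 8 were found among the 37620 genes of the count table. Hmgcs1, whose product makes HMG-CoA near the start of the pathway, is not analysed here. RNA was sequenced in bulk from 62 mouse libraries. Of these, 48 came from 24 clones of ER-Hoxb8 cells, bone marrow progenitors that an estrogen-dependent Hoxb8 fusion protein holds in a dividing state. Each clone, grown in RPMI with serum and stem cell factor (SCF), gave 1 library labelled as granulocyte-monocyte progenitors (GMP) and 1 labelled as monocytic cells (Plus and Minus in the titles, which do not say of what). The other 14 libraries were primary monocytes sorted from bone marrow, in pairs of libraries: 1 pair for each of 3 subsets (classical, intermediate, nonclassical) and 1 pair for each of class 1, class 2, class 3 and class 4, whose definitions the labels do not give. The labels give no strain or age for these mice and do not say whether the 2 libraries of a primary group came from separate animals, so p-values among primary cells measure the spread between libraries, which may be technical. Each clone was sequenced once per state.

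Cells build cholesterol from acetyl-CoA. The first steps lead to mevalonate, which Idi1 and its neighbours turn into isoprenoid units, Fdft1 joins these into squalene, Sqle and Lss close the ring to lanosterol, and Cyp51, Dhcr7 and others trim lanosterol to cholesterol. The genes are switched on together by SREBP transcription factors when membranes hold little sterol. Insig1 is not an enzyme. It keeps SREBP and its escort Scap in the endoplasmic reticulum when sterol is plentiful, and is itself an SREBP target. In monocytes and macrophages, synthesis and uptake are balanced against efflux through Abca1 and storage by Soat1.

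The 250 bases before the start of Hmgcs1, Lss, Cyp51 and Insig1 are shown as examples of promoters of SREBP targets, in which sterol response elements are known to work beside boxes for the factor NF-Y. That of Hmgcs1 holds both motifs, and the other three hold an NF-Y box. Capitals mark the sterol response element TCACNCCAC and the NF-Y box CCAAT, searched on both strands in RefSeq promoters of GRCm38.p6, a later build than the one used for counting.
Hmgcs1, chr13:119690101-119690350, plus strand: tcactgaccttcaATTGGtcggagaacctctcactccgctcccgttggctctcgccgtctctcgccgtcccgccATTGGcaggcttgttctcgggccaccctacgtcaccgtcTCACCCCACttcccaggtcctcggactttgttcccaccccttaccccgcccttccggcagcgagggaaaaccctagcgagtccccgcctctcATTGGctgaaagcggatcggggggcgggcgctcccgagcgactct
Lss, chr10:76531355-76531604, plus strand: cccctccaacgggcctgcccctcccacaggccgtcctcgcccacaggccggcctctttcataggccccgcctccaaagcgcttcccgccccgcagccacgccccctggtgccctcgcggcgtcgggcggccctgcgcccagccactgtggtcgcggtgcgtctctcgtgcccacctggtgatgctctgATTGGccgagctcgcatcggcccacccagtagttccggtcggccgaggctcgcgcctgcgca
Cyp51, chr5:4104698-4104947, minus strand: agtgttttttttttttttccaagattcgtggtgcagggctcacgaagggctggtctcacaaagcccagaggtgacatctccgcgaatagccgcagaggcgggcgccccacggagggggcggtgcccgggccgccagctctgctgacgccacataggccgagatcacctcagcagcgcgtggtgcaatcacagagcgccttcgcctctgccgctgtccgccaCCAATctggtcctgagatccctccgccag
Insig1, chr5:28071162-28071411, plus strand: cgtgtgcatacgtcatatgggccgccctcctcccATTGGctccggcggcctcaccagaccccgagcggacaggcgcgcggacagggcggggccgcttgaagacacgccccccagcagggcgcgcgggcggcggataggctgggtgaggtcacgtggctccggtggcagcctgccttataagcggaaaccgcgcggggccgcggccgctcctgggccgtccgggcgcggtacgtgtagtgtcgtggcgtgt
Promoter windows of 300 bases, 8 in all, were matched for 6 of the 8 genes, with 3 starts for Dhcr7. All 6 genes had an NF-Y box in at least 1 window (6 of 8 windows), against 37.4% of the 32851 promoter windows. All 6 also had a GC box, GGGCGG (7 of 8 windows), against 35.7%. The sterol response element was found in 1 window, that of Hmgcs1 at position -137 from the start, against 1.24% of all windows. These matches describe letters in the windows and were not tested for binding.

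Library totals ranged from 12.6 to 47.3 M counts (M for mega) in progenitors of clones 1 to 13 and from 0.362 to 16.5 M in progenitors of clones 15 to 25. In monocytic cells they ranged from 22.9 to 34.5 M and from 1.83 to 9.12 M, and in primary cells from 21.2 to 35.0 M. Because of this difference in depth, results across clones are also given for each of these clone sets alone. The shallowest library, the progenitors of clone 21, held 362033 counts. Summed over 7 monocyte markers, progenitors held 1654 to 4240 CPM (counts per M counts of the library total) and monocytic cells 6259 to 48976. Of these 7 markers, 5 were called higher in monocytic cells and 1 lower. Neutrophil markers rose as well, with 8 of 8 called and sums of 15.2 to 10056 in progenitors and 330 to 156807 in monocytic cells. Cell cycle genes fell in 8 of 10 cases, with sums of 1907 to 4228 in progenitors and 273 to 3906 in monocytic cells. Mast cell and basophil markers fell in 5 of the 5 tested (of 6), with sums of 1065 to 12735 and 1.02 to 7477. Progenitor markers fell in 5 of 7 and rose in 1, with sums of 7952 to 24357 and 110 to 27053. Of all 11614 genes tested between the states, 38.5% were called higher and 40.1% lower. The part of these differences in the results below was not tested, and in bulk RNA a change in the share of a cell type and a change of RNA per cell cannot be told apart.

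The comparison of states asked how the genes differed between the progenitors and monocytic cells of the same clone. Levels are TMM-scaled CPM, and changes are log2 fold changes from a fit with the clone as a block. All 7 genes passed the threshold (adjusted p under 0.05). Of them, 6 fell in monocytic cells, among them Cyp51, and Fdft1 rose. Changes were common in this comparison: 78.6% of 11614 genes tested were called, 38.5% higher and 40.1% lower. The median change was -0.59 over the 7 genes and -0.02 over all genes tested.

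Idi1, the isomerase that supplies both isoprenoid units, had the lowest counts, so its values carry the most counting error. Among progenitors it ran from 0 to 12.7 CPM with a median of 4.83, and among monocytic cells from 0.866 to 7.43 with a median of 3.05. It was lower in the monocytic library of 19 of 24 clones and fell by 0.61 on the log2 scale (SE 0.17, adjusted p = 0.00179). The value of 0 is the clone 21 progenitor library, where 0 reads still allow up to 8.29 CPM (3 counts of the library total, counting error only).

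Fdft1, squalene synthase, ran from 15.6 to 96.0 CPM in progenitors (median 54.2) and from 9.98 to 103 CPM in monocytic cells (median 60.3). The 96.0 CPM rested on 39 reads in the clone 21 library, and the next highest progenitor value was 69.7 CPM. Fdft1 was higher in monocytic cells in 19 of 24 clones, and rose by 0.34 (SE 0.12, adjusted p = 0.00993). Without the clone block the adjusted p was 0.0805, and without the filter on low counts it was 0.109. In the GENCODE M21 annotation of GRCm38 the Fdft1 gene (chr14:63145150-63179578, minus strand) overlaps Ctsb, the lysosomal protease cathepsin B, by 774 bases on the opposite strand. Ctsb rose by 4.46 (SE 0.27, adjusted p = 3.05e-14), to a median of 6409 CPM. The strand setting of the counting is not given in the sources used here, so the Fdft1 count is uncertain, and the part of Ctsb reads in it was not tested. The same holds for Lss, which overlaps the antisense gene 4930483K19Rik by 11268 bases, for Idi1, which overlaps Gm48574 by 323, and for Cyp51, which overlaps Akap9 by 166, each on the opposite strand. Across clones the deviations of Fdft1 and Ctsb had r = -0.20 in monocytic cells and -0.24 in progenitors (24 clones, a description).

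Sqle, squalene epoxidase, ran from 82.1 to 194 CPM in progenitors (median 145) and from 27.0 to 184 CPM in monocytic cells (median 108). The 194 CPM rested on 79 reads in the clone 21 library, and the next highest progenitor value was 177 CPM. The 2 ranges overlapped over most of their length, yet 19 of 24 clones were lower in monocytic cells, and Sqle fell by 0.43 (SE 0.13, adjusted p = 0.00453). Lss, lanosterol synthase, ran from 20.6 to 118 CPM in progenitors (median 66.1) and from 15.7 to 72.9 CPM in monocytic cells (median 37.8). It was lower in 17 of 24 clones and fell by 0.59 (SE 0.14, adjusted p = 0.000545).

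Cyp51, the lanosterol demethylase, had the largest change of the 7. It ran from 92.7 to 358 CPM in progenitors (median 241) and from 27.4 to 208 CPM in monocytic cells (median 112). It was lower in 23 of 24 clones, and fell by 0.92 (SE 0.12, adjusted p = 1.23e-07). Dhcr7, which carries out the last reduction to cholesterol, ran from 30.8 to 125 CPM (median 96.3) and from 4.95 to 73.0 CPM (median 53.4), respectively. It was lower in 19 of 24 clones and fell by 0.72 (SE 0.18, adjusted p = 0.000845). Insig1 ran from 36.1 to 236 CPM in progenitors (median 133) and from 31.2 to 157 CPM in monocytic cells (median 76.9). It was lower in 19 of 24 clones and fell by 0.49 (SE 0.14, adjusted p = 0.00217).

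**Figure D1:**
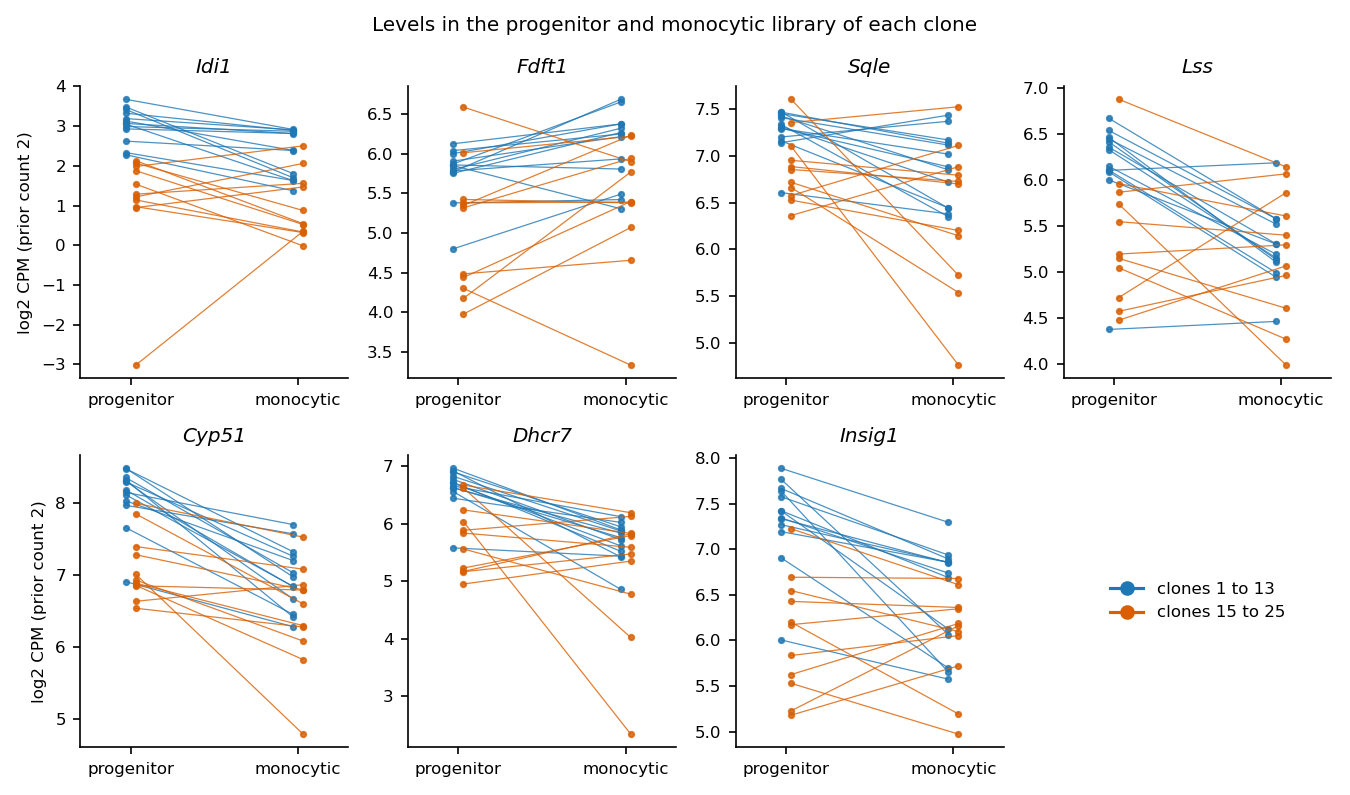
Log2 CPM (prior count 2) of each gene in the progenitor and the monocytic library of each of 24 clones, 1 line per clone, in blue for clones 1 to 13 and orange for clones 15 to 25. Cyp51 is lower in monocytic cells in 23 clones, Fdft1 is higher in 19, and blue progenitor points lie mostly above orange ones.

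The change between states was next read within each clone set. In a fit with a term for the set, clones 1 to 13 had 6 of 7 genes lower (37.6% of all genes were lower there), all but Fdft1 (0.32, adjusted p = 0.0644, and 0.00910 when these clones were fitted alone). Clones 15 to 25 had 2 of 7 lower (35.6% of all genes), Sqle (-0.46, SE 0.20, adjusted p = 0.0461) and Cyp51 (-0.65, SE 0.17, adjusted p = 0.00147). With these clones fitted alone only Cyp51 passed, and Sqle had an adjusted p of 0.155. In clones 1 to 13, Idi1, Cyp51, Dhcr7 and Insig1 were lower in monocytic cells in 13 of 13 clones, whereas in clones 15 to 25 Idi1, Lss, Dhcr7 and Insig1 were each higher in 5 of 11. For Idi1 the 5 were clones 16, 17, 18, 20 and 21, whose monocytic libraries held only 18, 8, 7, 9 and 3 Idi1 reads. Clone 21 held 0 in progenitors, so its direction is not known, and the Idi1 count of 5 is uncertain. The difference between the sets itself passed for Lss and Insig1, 2 of 7, where 23.7% of all genes passed. Lss changed by -0.90 (SE 0.17) in clones 1 to 13 and by -0.18 (SE 0.19) in clones 15 to 25, a difference of 0.72 (SE 0.25, adjusted p = 0.0376). Insig1 changed by -0.86 (SE 0.15) and by -0.03 (SE 0.17), a difference of 0.82 (SE 0.23, adjusted p = 0.00972). The other 5 differences ran from -0.06 for Sqle to 0.54 for Dhcr7 and did not pass.

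The clone sets were also compared within each state. In progenitors, Cyp51 averaged 283 ± 65.4 CPM (SD, n = 13) in clones 1 to 13 and 146 ± 53.1 (SD, n = 11) in clones 15 to 25. Insig1 averaged 169 ± 44.5 and 73.0 ± 33.9 CPM, and Idi1 8.41 ± 2.33 and 2.61 ± 1.26 CPM. For Idi1 every library of clones 1 to 13 was above those of clones 15 to 25 but for clone 21, whose 0 reads allow a level inside the range of clones 1 to 13. The share of all genes with such a separation was not computed. In monocytic cells Cyp51 averaged 130 ± 40.1 and 96.4 ± 42.3 CPM, and Lss 39.9 ± 12.3 and 40.9 ± 18.6 CPM. In a comparison added after these levels were seen, all 7 genes were lower in clones 15 to 25 among progenitors, where 26.8% of all genes were lower. The changes ran from -0.37 for Sqle (adjusted p = 0.0102) to -1.57 for Idi1 (adjusted p = 1.42e-06). Among monocytic cells 1 of 7 was lower, Idi1 (-1.20, SE 0.32, adjusted p = 0.0210), against 2.74% of all genes. Of 3 marker sums in progenitors, only the erythroid one did not overlap between the sets, at 4.44 to 80.7 in clones 1 to 13 and 0 to 4.0 in the other set. Mast cell and basophil sums overlapped, at 2309 to 12735 and 1065 to 8531. Neutrophil sums did too, at 27.5 to 828 and 15.2 to 10056, with only clones 20 and 21 (10056 and 7052) above 914. These sums were not tested between the sets, and neither was their part in the difference of the 7 genes. Median progenitor depth was 14.7 M counts for clones 1 to 13, against 12.5 M for clones 15 to 25, and median monocytic depth 26.0 M against 3.18 M. The set, and whatever else was done differently for the sets, cannot be told apart.

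Of the other 14 enzymes of the pathway, 5 rose, 4 fell and 5 did not pass, near or under the shares over all genes (38.5% higher, 40.1% lower). Without the filter on low counts 3 rose. Among the lower ones were Acat2 (-1.55, SE 0.20, adjusted p = 9.63e-08), which makes acetoacetyl-CoA, and Tm7sf2 (-0.59, SE 0.21, adjusted p = 0.0105), a sterol-reducing enzyme. The 3 that rose most were Sc5d (1.06) and Hsd17b7 (0.96), both of the steps after lanosterol, and Mvd (0.95), which decarboxylates mevalonate diphosphate.

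**Figure D2:**
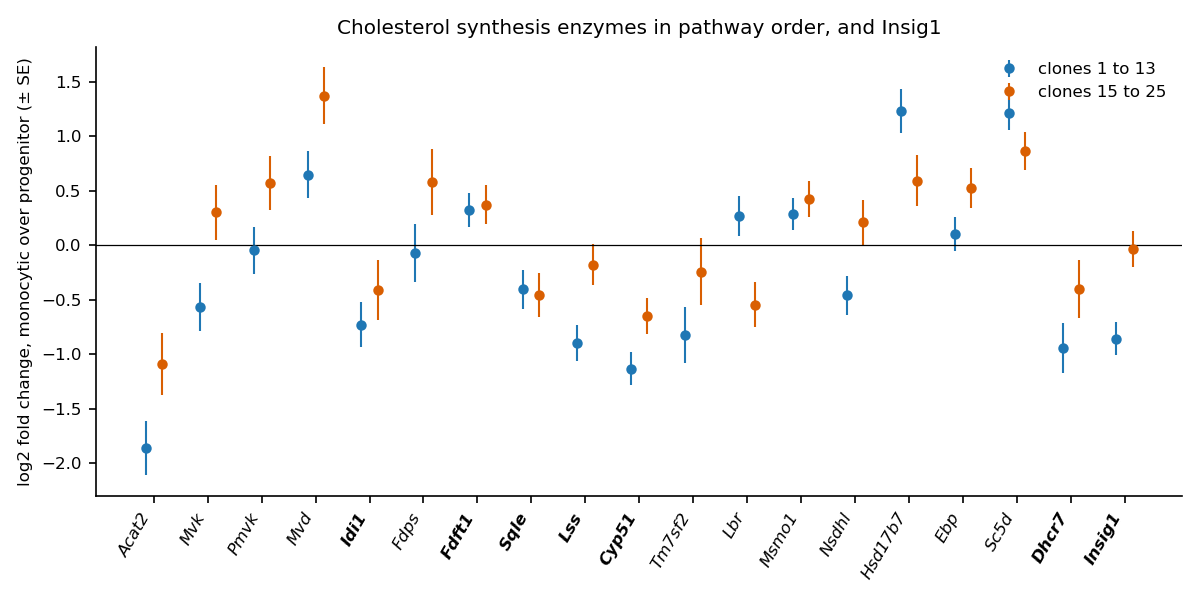
Log2 fold change of monocytic over progenitor cells, with its standard error, for enzymes in pathway order and Insig1, in clones 1 to 13 (blue) and clones 15 to 25 (orange), with the 7 described genes in bold. Enzymes below 0 (Acat2, Cyp51, Dhcr7) and above 0 (Mvd, Hsd17b7, Sc5d) are mixed along the pathway.

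Of the SREBP machinery, 1 of 6 genes rose and 2 fell (38.5% and 40.1% of all genes). Insig2, the partner of Insig1, rose by 0.89 (SE 0.11, adjusted p = 4.57e-08) and was higher in all 24 clones. Scap fell by 0.41 (SE 0.10, adjusted p = 0.000380) and the protease Mbtps1 by 0.76 (SE 0.06, adjusted p = 2.40e-11). Srebf2, the main SREBP of cholesterol genes, changed by 0.13 (SE 0.08, adjusted p = 0.164), and Srebf1, that of fatty acid genes, by -0.13 (SE 0.10, adjusted p = 0.250). Of 5 uptake genes, 2 rose and 2 fell (1 fell with a minimum count of 50), again near the shares over all genes, among the latter the lipoprotein receptor Lrp8, by 1.05 on the log2 scale (SE 0.18, adjusted p = 9.36e-06). Over all clones 7 of 7 efflux and storage genes rose, with a median of 2.20, where 38.5% of all genes rose. In clones 15 to 25, 5 of 7 passed, all but Apoe (0.39, adjusted p = 0.412) and the sterol exporter Abcg1 (0.61, adjusted p = 0.118). Among them the sterol sensor Nr1h3 rose by 3.83, the cholesterol esterifier Soat1 by 3.54 and Apoe by 2.51.

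Across clones the genes varied together. Each state's mean within each clone set was first removed. Among the 21 pairs of the 7 genes, the median r was 0.65 over 24 progenitor libraries, with 18 pairs above 0, and 0.69 over 24 monocytic libraries, with 20 above 0. Cyp51 followed the mean of the other 6 most closely (r = 0.90 over 48 libraries), then Lss (0.88), Insig1 (0.86), Sqle (0.77), Dhcr7 (0.67) and Fdft1 (0.62). Idi1, with the lowest counts, had r = 0.18. Without clone 21, where Idi1 had 0 reads, all 21 pairs were above 0 in progenitors (lowest r 0.44, against -0.29 with it). In monocytic cells 20 pairs were above 0 with or without that clone (lowest r -0.17 without it, -0.097 with it). There Idi1 had r = 0.21 to the other 6 over all clones. Within clones 1 to 13 the median r was 0.83 in progenitors and 0.62 in monocytic cells, and within the other set 0.57 and 0.67. These values share libraries and scaling and are given as a description.

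Single clones stood at the ends. Clone 13 was the lowest of clones 1 to 13 in progenitors for 7 of 7 genes, with Cyp51 at 120 CPM, Lss at 20.6 CPM and Insig1 at 64.1 CPM. It was also the lowest in monocytic cells for 4 of 7 (Idi1, Lss, Cyp51 and Insig1). The clone 13 progenitor library had the lowest mast cell and basophil sum of its set (2309, the next being 4925) and a high cell cycle sum (4163, rank 23 of 24 from the lowest), whose part was not tested. Clone 25 was the highest of clones 15 to 25 for 5 of 7 genes in progenitors, with Cyp51 at 255 CPM and Lss at 118 CPM, and for 4 of 7 in monocytic cells. Its progenitor library, too, had a low mast cell and basophil sum (2161, rank 2 of 24 from the lowest) and a high cell cycle sum (4143, rank 22). Clones at opposite ends for the genes were thus alike in these 2 sums. Clone 20 was the lowest of clones 15 to 25 in monocytic cells for 4 of 7, with Dhcr7 at 4.95 CPM (11 reads), Sqle at 27.0 CPM and Cyp51 at 27.4 CPM. In that library the cell cycle sum was 539 (rank 3 of 24 from the lowest) and the neutrophil sum 91575 (rank 21). Similar neutrophil sums went with different levels. Clone 19 (95486, rank 22) was the highest of its set for Fdft1 and Insig1, and clone 21 (116846, rank 23) had Dhcr7 at 16.1 CPM and Sqle at 52.6 CPM. The part of these markers in the low values was not tested. Without clones 13 and 25, the median r of the pairs was 0.47 in progenitors and 0.67 in monocytic cells. Without clone 21 it was 0.85 and 0.71.

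**Figure D3:**
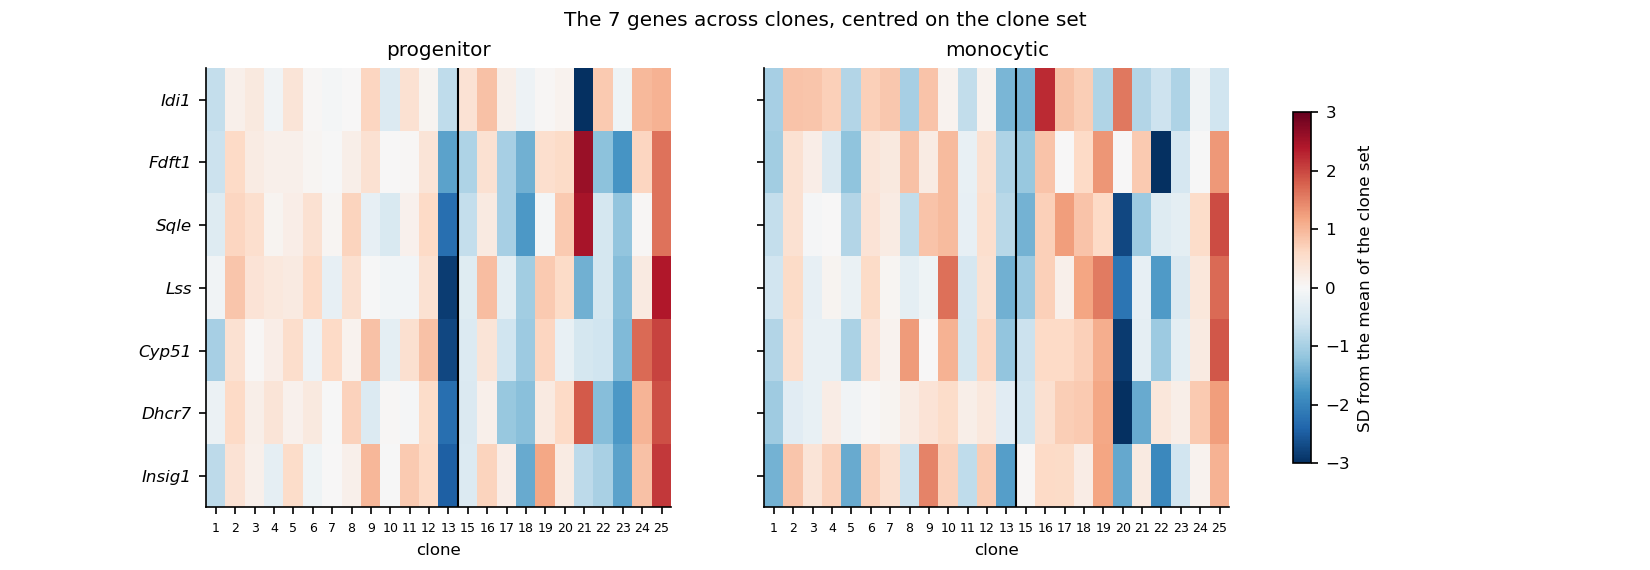
Each gene (rows) in each clone (columns) in progenitors and monocytic cells, as log2 CPM minus the mean of its clone set divided by the SD over clones, with red above and blue below the mean and a line between clones 13 and 15. Columns for clone 13 (blue in progenitors), clone 25 (red) and clone 20 (blue in monocytic cells) run through most rows, and Idi1 departs from the other rows most in clone 21 of the progenitors, where it had 0 reads.

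Outside the 7, the 8 genes of 8277 ranked (mean log2 CPM of at least 3) whose deviations were most like the mean of the 7 over 48 libraries included Nsdhl (r = 0.88), a sterol-trimming enzyme, Acat2 (0.84), the fatty acid desaturases Scd2 (0.82) and Fads2 (0.81), Mvd (0.75), the sterol carrier Stard4 (0.74) and the HDL receptor Scarb1 (0.74). The median r over all genes ranked was 0.03. Of the 14 other enzymes of the pathway, 11 were among the 30 most alike. Without clone 21, 6 of the 8 were still among the 8 most alike. Within clones 1 to 13, 7 of the 8 were among the 100 most alike, all but Scarb1 (r = 0.54), and within clones 15 to 25 all 8 were. Mvd, which rose between states where 6 of the 7 fell, still followed them from clone to clone.

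Whether clones kept their order between states was read from 2 tests on the same 48 libraries, which are not independent of each other. The first asks only whether levels differ among clones, which takes in any difference between the clone sets. The clone effect, tested with the state removed, passed for 4 of 7 genes: Idi1 (adjusted p = 0.00471), Fdft1 (0.00579), Cyp51 (0.0184) and Insig1 (0.0181), where 11.7% of all genes passed. The other test was the correlation of log2 CPM between the progenitor and the monocytic library of a clone over 24 clones (permutation test of the pairing, 2-sided, adjusted over 11614 genes). It passed for the same 4 genes, where 8.30% of all genes passed. For Fdft1 r was 0.67 (p = 0.00017, adjusted p = 0.00737) and Spearman's rho 0.61 (p = 0.00205, adjusted p = 0.0524). For Idi1 r was 0.63 (p = 0.00021, adjusted p = 0.00832) and rho 0.73 (p = 0.00011, adjusted p = 0.0103). Insig1 had r = 0.60 (p = 0.00217, adjusted p = 0.0339) and rho 0.54 (p = 0.00661, adjusted p = 0.0952), and Cyp51 r = 0.58 (p = 0.00218, adjusted p = 0.0340) and rho 0.54 (p = 0.00695, adjusted p = 0.0970). Leaving out the 2 clones farthest from the median progenitor level gave r of 0.74 for Fdft1, 0.64 for Idi1, 0.61 for Insig1 and 0.62 for Cyp51.

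The other 3 genes did not pass this test, which does not show that their order was lost. Lss had r = 0.42 (p = 0.0440, adjusted p = 0.190), Sqle 0.19 (p = 0.382, adjusted p = 0.612) and Dhcr7 0.13 (p = 0.596, adjusted p = 0.777). Their rho values were 0.43 (p = 0.0354, adjusted p = 0.221), 0.24 (p = 0.247, adjusted p = 0.560) and 0.32 (p = 0.124, adjusted p = 0.408). Of the 6 clones highest for a gene in progenitors, 2 or 3 were among the 6 highest in monocytic cells for each of the 7 genes.

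Within the clone sets the order did not pass. With the set mean removed and clones permuted within sets, 0 of 7 genes passed, where 1.10% of all genes passed. Unadjusted p-values under 0.05, found for 1594 of 11614 genes, included those of Fdft1 (r = 0.56, p = 0.0147), Insig1 (0.51, p = 0.00987), Lss (0.46, p = 0.0372) and Cyp51 (0.44, p = 0.0412). Idi1 fell to r = 0.26 (p = 0.306). Within clones 1 to 13 alone r was 0.42 for Idi1, 0.56 for Fdft1, 0.45 for Cyp51 and 0.52 for Insig1, and within clones 15 to 25 alone 0.24, 0.57, 0.45 and 0.52. None of these passed within a set (0.00% of all genes passed in clones 1 to 13, 0.620% in clones 15 to 25), and neither did the clone effect. By rho 1 of 7 passed (3.70% of all genes), with DESeq2 size factors 2 of 7 (Idi1 and Fdft1; 7.74%), with residuals on the library total 0 of 7 (0.870%) and without clone 21 all 4 (7.75%).

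**Figure D4:**
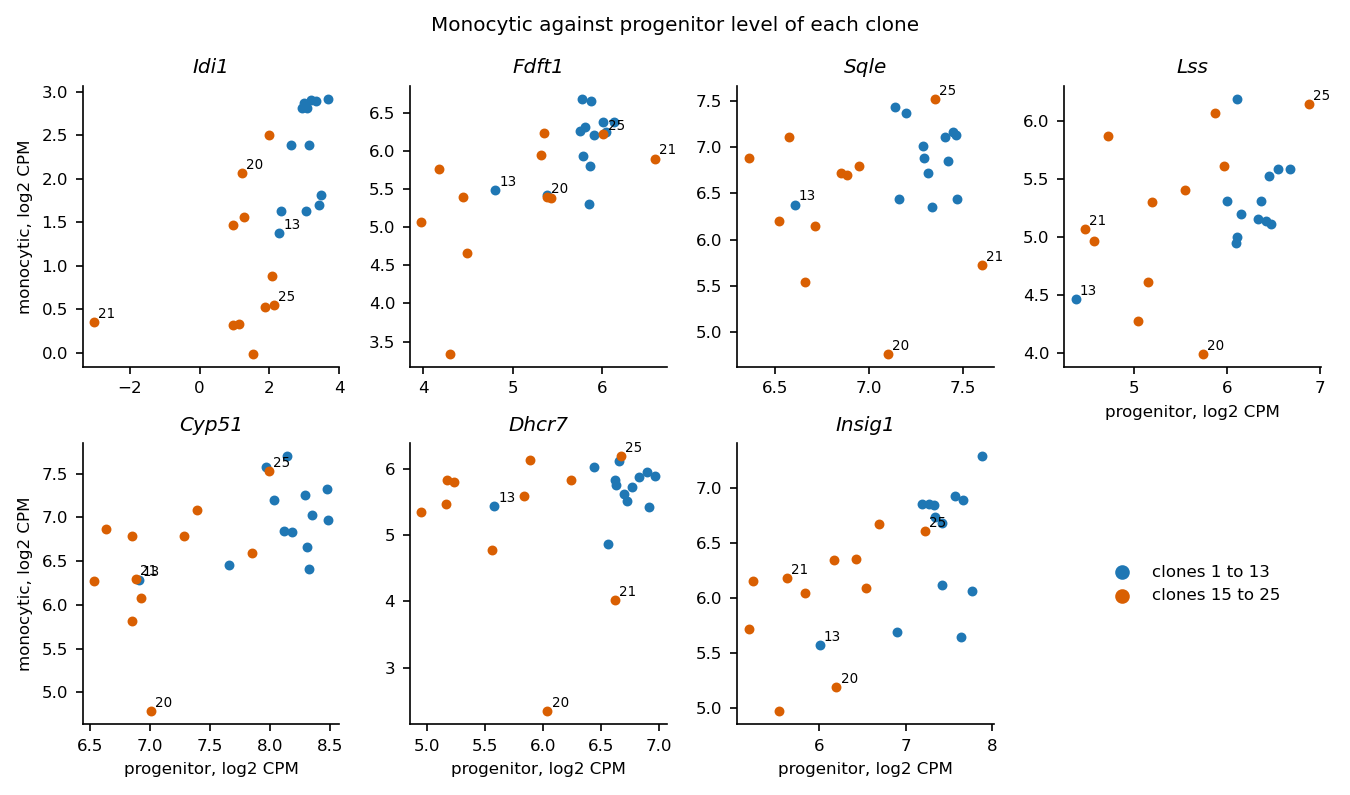
Monocytic against progenitor log2 CPM (prior count 2) of each clone, in blue for clones 1 to 13 and orange for clones 15 to 25, with clones 13, 20, 21 and 25 marked. Idi1 separates mainly by colour (r = 0.63 pooled, 0.26 with set means removed). Within the blue and the orange points r was 0.45 and 0.45 for Cyp51 and 0.52 and 0.52 for Insig1. It was 0.56 and 0.57 for Fdft1 and 0.60 and 0.39 for Lss, and none of these passed. Pooled r was lowest for Dhcr7 (0.13) and Sqle (0.19), which did not pass either.

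Primary monocyte subsets were compared to ask whether the genes differ between classical, intermediate and nonclassical monocytes. None of the 7 genes passed in edgeR, by the test over the 3 subsets (2.95% of 13944 genes passed), for nonclassical against classical (5.82%) or for intermediate against classical (2.11%). Unadjusted p under 0.05 was found for 3252 genes by the first of these tests, and for none of the 7, with the smallest for Insig1 (p = 0.0544). Insig1 was 62.1 and 65.2 CPM in the classical libraries, 49.5 and 50.8 in the intermediate ones and 41.1 and 42.0 in the nonclassical ones. Its nonclassical change of -0.62 (SE 0.19) had an adjusted p of 0.139 in edgeR and passed in DESeq2 (-0.57, adjusted p = 0.00882). DESeq2 also passed more of all genes than edgeR in this comparison. Sqle was 21.5 and 19.4 CPM in classical, 22.4 and 36.3 in intermediate and 15.7 and 12.9 in nonclassical libraries. Dhcr7 was 23.02 and 21.4, 32.1 and 18.7, and 14.5 and 4.83 CPM, respectively.

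The intermediate libraries disagreed with each other. Replicate 1 had Lss at 25.6 CPM, Fdft1 at 64.2 and Cyp51 at 60.7, and replicate 2 had 3.20, 31.1 and 32.1. Without replicate 1, the intermediate change turned from 1.22 to -0.94 for Lss, from 0.42 to -0.10 for Cyp51 and from 0.19 to -0.24 for Dhcr7. Mast cell and basophil marker sums were 3646 and 8551 in the intermediate libraries and 1549 and 5849 in the nonclassical ones, against 6.81 to 15.4 in the classical ones. In nonclassical against classical monocytes 6 of 6 of these markers and 6 of 6 B cell markers were higher, where 2.91% of all genes were. Erythroid marker sums were 373 and 58.8 in the intermediate libraries. Cell cycle sums were 3024 and 3327 in the classical, 1392 and 1916 in the intermediate and 666 and 538 in the nonclassical libraries. Progenitor marker sums were 681 and 938, 3763 and 11798, and 213 and 383, respectively. The part of all these markers in the values was not tested.

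The classes were compared with 1 test over the 4. Of the 7 genes, 3 passed (Sqle, Dhcr7 and Insig1), which is near the 43.8% of 13686 genes that passed. Sqle was lowest in class 2, at 13.8 and 14.9 CPM, and ran from 21.96 to 31.4 CPM in the other 6 libraries (adjusted p = 0.0283). Insig1 was highest in class 2, at 66.5 and 68.3 CPM, with class 1 at 60.6 and 36.0, class 3 at 38.1 and 29.7 and class 4 at 34.1 and 26.0 (adjusted p = 0.0275). Dhcr7 was lowest in class 4, at 10.8 and 12.8 CPM, and highest in class 3, at 26.3 and 21.4, with class 1 at 16.5 and 17.8 and class 2 at 17.4 and 20.9 (adjusted p = 0.0445). Class 2 thus had the lowest Sqle and the highest Insig1. The adjusted p was 0.199 for Cyp51, 0.161 for Fdft1, 0.398 for Lss and 0.633 for Idi1. Leaving out either library of class 2 or of class 3 ended all 3 calls, and leaving out either library of class 1 left Insig1 alone. Cell cycle sums were 280 and 311 in class 2 and 4808 to 4857 in class 3, and neutrophil marker sums were 50569 and 68710 in class 4. Class 4 also had erythroid sums of 3343 and 4125 (1.52 to 86.7 in the other classes) and B cell sums of 2578 and 2015 (51.1 to 310). Progenitor marker sums were 9560 and 10203 in class 4 and 137 to 7192 in the other classes. The part of these markers in the values was not tested.

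**Figure D5:**
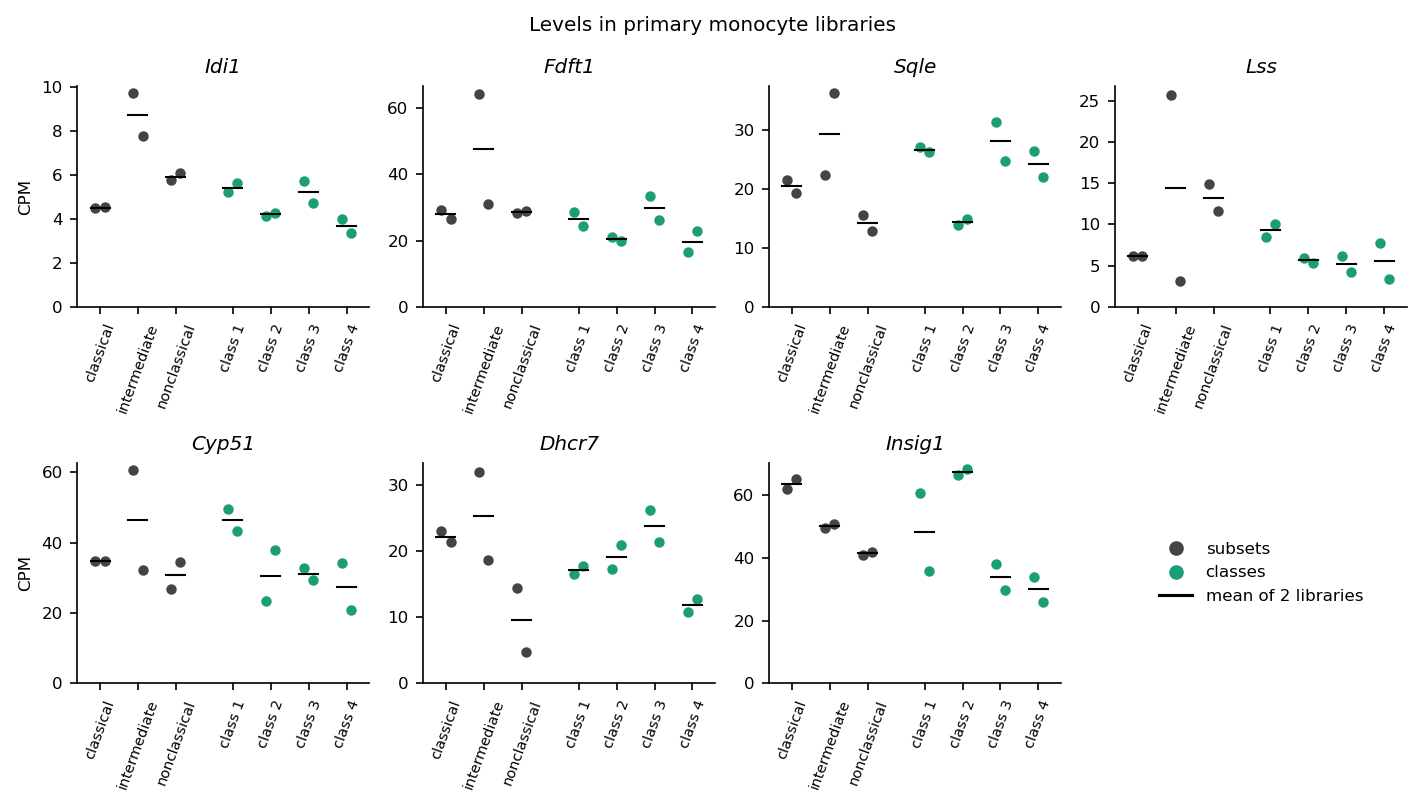
CPM of each gene in the 6 subset libraries (grey) and the 8 class libraries (green), with a bar at the mean of the 2 libraries of a group. The 2 intermediate libraries lie far apart for Lss, Fdft1 and Cyp51, and class 2 is lowest for Sqle and highest for Insig1.

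On a scale common to all 62 libraries, the 9 groups were ordered by their mean CPM, with no test across cultured and primary cells, which differ in source and handling. Sqle was ordered as progenitors (138), monocytic cells (103), intermediate (32.4), class 3 (31.4), class 1 (30.1), class 4 (27.2), classical (23.5), nonclassical (15.8) and class 2 (15.4). The lowest progenitor library, at 82.9 CPM, was above the highest of the 14 primary libraries, at 40.3. Cyp51 was ordered as progenitors (217), monocytic cells (109), class 1 (52.2), intermediate (51.1), classical (40.0), class 3 (34.8), nonclassical (34.5), class 2 (32.7) and class 4 (30.9), and here too the lowest progenitor library (91.9 CPM) was above the highest primary one (66.5). Both genes were thus higher in every progenitor library than in any primary one. The share of all genes separated in this way was not computed, so this is a description.

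Lss was ordered as progenitors (61.6), monocytic cells (38.3), intermediate (15.8), nonclassical (14.6), class 1 (10.5), classical (7.15), class 4 (6.27), class 2 (6.06) and class 3 (5.82). Dhcr7 was ordered as progenitors (80.9), monocytic cells (46.8), intermediate (27.9), class 3 (26.7), classical (25.6), class 2 (20.5), class 1 (19.3), class 4 (13.3) and nonclassical (10.4). For these 2 genes the ranges of the cultured and the primary libraries overlapped. Insig1 was ordered as progenitors (123), monocytic cells (79.6), classical (73.3), class 2 (72.2), intermediate (55.3), class 1 (54.5), nonclassical (46.3), class 3 (37.9) and class 4 (33.7).

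Fdft1 was highest in monocytic cells (57.1), then intermediate (52.4), progenitors (46.7), class 3 (33.5), classical (32.1), nonclassical (31.9), class 1 (29.96), class 4 (22.1) and class 2 (22.1). Idi1 alone was highest in primary cells, in the intermediate libraries (9.63), then nonclassical (6.62), class 1 (6.11), class 3 (5.82), progenitors (5.70), classical (5.20), class 2 (4.50), class 4 (4.14) and monocytic cells (3.69). Neighbours in these orders mostly overlapped in range. How often genes at large lack overlap between such small groups was not computed, so the exceptions are a description. For Sqle they did not overlap between class 4 and classical and between classical and nonclassical, for Lss between nonclassical and class 1 and between class 1 and classical, for Cyp51 between classical and class 3, and for Fdft1 between class 1 and class 4. For Dhcr7 they did not overlap between classical and class 2 and between class 1 and class 4, for Insig1 between class 2 and intermediate and between nonclassical and class 3, and for Idi1 between intermediate and nonclassical and between classical and class 2.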

How the data were processed

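Total RNA had been sequenced from 62 libraries. The authors deposited a table of unnormalised counts with 37620 gene rows. The submitters' processing notes name the tools STAR 2.7.3a and HTSeq 0.6.0 and the build mm9. The strand setting, annotation release and filters are not given in the sources used here. A column of the table (1 in all) belongs to no labelled sample and was not used. Groups came from titles and source names, and the clone number paired the libraries of a clone.

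Counts were analysed with edgeR 4.0.16 (R 4.3.3). Low genes were removed with filterByExpr (minimum count 10), libraries were scaled by TMM, and genes were tested with 2-sided quasi-likelihood F tests, Benjamini-Hochberg adjusted over all genes tested, at a threshold of 0.05. Clones entered as a block. Log2 CPM used a prior count of 2. Clone order was tested in Python 3.11.15 with numpy 2.4.6, with permutations whose smallest p is 1e-05. The 6 subset libraries and the 8 class libraries were fitted apart (3 and 4 residual degrees of freedom; biological coefficient of variation 0.814 and 0.377, against 0.384 among clones). Alternatives were DESeq2 1.42.0, its size factors, other filters, other subsets of clones, left-out libraries and the block. The fits were tested on simulated data.

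The genes, lists and clone sets were chosen with earlier results of these data known. The 8 genes, Srebf2, Srebf1, Scap and Insig2 were named whatever their values. From each list at most 3 genes that rose and 3 that fell were added, taking the largest changes past the threshold, and then the 8 genes most like the mean of the 7 across clone libraries. Some genes that these rules select are not reported here, though counts over lists include them. Ctsb and other overlapping genes were named for their overlap, and Abcg1 after its values were seen. The comparison of clone sets within a state was added after the levels were seen.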

Additional observations from a re-analysis of the deposited data

Results flagged for a closer look

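The change between states differed between the clone sets for 6 of the genes named here. The test was that of the difference itself (edgeR, state by clone set, adjusted over 11614 genes), which 23.7% of all genes passed. By list, it passed for 2 of the 7 genes described, 1 of 14 other enzymes and 1 of 6 SREBP machinery genes. It also passed for 1 of 5 uptake, 2 of 7 efflux and storage, 1 of 9 fatty acid and 0 of 7 nonsterol isoprenoid genes. These counts are near or under the share over all genes. Given as the change in clones 15 to 25 minus that in clones 1 to 13, the difference was 0.72 for Lss (adjusted p = 0.0376) and 0.82 for Insig1 (adjusted p = 0.00972), the genes described above. It was 3.25 for the desaturase Scd1 (adjusted p = 0.0344), -1.21 for the receptor Lrp8 (adjusted p = 0.00324), -1.07 for Soat1 (adjusted p = 0.0104) and -3.94 for Apoe (adjusted p = 4.80e-05). Apoe rose by 4.33 (SE 0.42) in clones 1 to 13 and changed by 0.39 (SE 0.41, adjusted p = 0.412) in clones 15 to 25. Soat1 was higher in monocytic cells in all 24 clones and rose in both sets, by 4.01 and 2.94.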

How the results depend on the processing

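Of 546 values of the 7 genes recomputed under alternatives, 473 kept their direction and side of the threshold, 55 no longer passed, 4 newly passed and 14 changed sign; the causes were not tested. Between states, the 6 lower genes held with DESeq2, its size factors, either other filter, without clone 21 and without the clone block. The count of higher genes was 0 without the clone block and 0 without a filter (Fdft1). Clones 15 to 25 fitted alone gave 1 lower (Cyp51) and 0 higher, and Insig1 was 0.015 there (adjusted p = 0.946). The set difference of Sqle turned to 0.039 with DESeq2 size factors, 0.077 without a filter and 0.078 without clone 21. The clone effect passed for 0 of the 7 in either set alone, with fewer samples. The kept order passed for 1 gene by Spearman's rho (Idi1), 2 with DESeq2 size factors, 0 with residuals on depth, 0 when centred on the set, and 0 and 0 within the sets; r changed sign for Sqle (-0.047 centred, -0.16 in clones 15 to 25) and Dhcr7 (-0.12, -0.20, and -0.064 on depth residuals).

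Among subsets DESeq2 passed 1 gene (Insig1), lower and over the 3 subsets, and 3613 genes in all against 412 in edgeR over the 3 subsets, 3366 against 811 for nonclassical and 3102 against 294 for intermediate. Over all genes the clone effect passed for 2054 without a filter against 1357, and for 36 and 387 in the deeper and the shallower set alone, and the state for 6070 in the shallower set alone against 9132. Leaving out 1 library left 0 of the 7 passing each time, and 0 to 404 of all genes over the 3 subsets. For nonclassical against classical, Fdft1 ranged from -0.049 (without classical replicate 2) to 0.046, and was -0.017 without intermediate replicate 1. For intermediate against classical, with the lowest value each time without intermediate replicate 1, Lss ranged from -0.94 to 2.03, Cyp51 from -0.10 to 0.79 and Dhcr7 from -0.24 to 0.51. Leaving out 1 class library gave 0 to 3 genes. Where a group kept 1 library, it was assumed to vary like the others.

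The primary libraries share only a replicate number (r of same-numbered deviations 0.18 to 0.38 among subsets, -0.01 to 0.07 among classes). With a replicate block 0 subset genes and 2 class genes passed, and Dhcr7 had an adjusted p of 0.0626. The clone pairing is given by the design. Shallow libraries limit Idi1 most.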

Other observations

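Fatty acid synthesis genes, other targets of SREBP, fell in monocytic cells in 8 of 9 tested cases and rose in none, with a median change of -1.30, where 40.1% of all genes fell. Without the filter on low counts 1 of the list rose. The largest were Scd1 (-5.05, SE 0.62), Elovl6 (-2.61, SE 0.18), an elongase, and Fads2 (-1.94, SE 0.25). Of 7 genes of the nonsterol isoprenoid branch, which uses the same precursors, 3 fell: Pdss1 (-1.95) and Coq2 (-1.32), of ubiquinone synthesis, and Fntb (-1.08), a farnesyltransferase subunit. The other two that passed rose: Dhdds (0.80), of dolichol synthesis, and Pdss2 (0.28). These counts are near the shares over all genes (38.5% higher, 40.1% lower), and without the filter on low counts 5 of the list fell and 1 rose.

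In progenitors of clones 15 to 25, 10 of the 14 other cholesterol enzymes were lower than in clones 1 to 13 and 0 were higher, where 26.8% of all genes were lower and 31.2% higher. Among the classes, 6 of these 14 passed the test over the 4 classes, near the 43.8% of all genes.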
